A study of Homo sapiens with 9 samples.

Results

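Clustered protocadherins are adhesion proteins of the cadherin superfamily, encoded side by side on chromosome 5 in an alpha, a beta and a gamma cluster. The rows of the count table whose symbol names an alpha, beta or gamma cluster member were taken. This gave 53 of 42717 genes, 15 in the alpha, 16 in the beta and 22 in the gamma cluster. On the plus strand of GRCh38.p14, the genes of the alpha cluster lay within chr5:140786140-141012347, those of the beta cluster within chr5:141051374-141249365 and those of the gamma cluster within chr5:141330514-141512975.

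Each clustered protocadherin is transcribed from a promoter of its own in front of a large exon that encodes the cadherin repeats, the membrane span and part of the tail. In the alpha and gamma clusters this exon is spliced to constant exons that all members of the cluster share, whereas a beta gene has no constant exons and stands alone. In neurons, each cell uses a few of these promoters, and the proteins bind like to like across cell contacts. The C-type genes at the ends of the alpha and gamma clusters are known to be used more uniformly than the others.

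RNA was measured in 3 lines, each with 3 libraries (9 in all). The lines S2-007, S2-020 and S2-028 were derived from SUIT-2 cells, which come from a human pancreatic adenocarcinoma. The cells received no treatment before RNA was taken and grew in DMEM with 10% inactivated serum. The study compared S2-007 with S2-028 because they differ in where the protease inhibitor maspin lies in the cell, and describes S2-020 as a line with little maspin. No line has a second line of its kind beside it, and the labels do not say whether replicates were separate cultures. The p-values below therefore measure only the spread between these libraries, which may be technical. In bulk RNA, fewer cells that use a gene and less RNA per cell cannot be told apart.

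The total count was between 60328748 and 86253923 per library, of which the 53 genes took between 6561 and 10480. All 9 libraries were nearest to a library of their own line. The epithelial markers EPCAM, CDH1, KRT7, KRT8, KRT18 and KRT19 were measured in every line. In S2-020, 5 of these 6 were lower than in S2-007, among them the E-cadherin gene CDH1 at a log2 fold change of -3.61. In S2-028, 4 of the 6 were higher than in S2-007. Their log2 fold changes were 1.88 for KRT7, 1.27 for KRT18, 1.05 for CDH1 and 0.82 for KRT8. EPCAM and KRT19 were not higher, with log2 fold changes under 0, the lowest -0.32. All 6 were higher in S2-028 than in S2-020. Of all genes tested, 10.2% were higher in S2-028 than in S2-007 and 12.1% higher than in S2-020. In S2-020, 12.1% were lower than in S2-007. Most alpha genes below were also higher in S2-028 than in S2-007, as were 4 of the 6 markers, but not EPCAM and KRT19. In S2-020 against S2-007, 1 of 11 alpha genes tested was lower. The part of the markers in the results was not tested. The neuron markers RBFOX3, SNAP25, SYP, MAP2 and STMN2 had at most 73 counts in any library. Some alpha genes below had counts of this size, such as PCDHA11 with 42 to 66 in S2-028. In S2-028 against S2-007, 1 of the 5 neuron markers was called higher and 1 lower (40%), beside 18.4% of all genes called. The leukocyte markers PTPRC, CD3E and CD14 had at most 62.

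The promoters are shown first, because they mark how alike the members of a cluster are where transcription begins. RefSeq promoter sequences on GRCh38.p14, from 250 bases before to 50 after the start, were given for 47 of the 53 genes. The 4 letters CGCT, the core of an element known from these clusters, were searched on the gene strand between 100 and 30 bases before the start. They were found in 43 of the 47 promoters (91.5%), against 20.5% of all 35116 promoters in the table. On the opposite strand of the same window, 19.1% of the members and 20.9% of all promoters held them. The core was found in 12 of 13 alpha, 12 of 14 beta and 19 of 20 gamma promoters. In the beta genes PCDHB5 and PCDHB8 it lay outside the window. In PCDHAC2, PCDHGB6 and PCDHGC3 a further core lay nearer the start, at -41, -57 and -51 bases, and is not shown. The windows below are 30 bases long, all on the plus strand, with the core in capitals. They are those of the beta genes that the results turn on and, to show how the clusters differ around the core, of 4 alpha and 3 gamma genes described below.
PCDHB13: ggacgcgtggtggCGCTgcaggataagaag
PCDHB14: agacacatggtggCGCTacaggataagacg
PCDHB16: gaacgcgtggtggCGCTgcaggttaagatg
PCDHB12: agacgcgtggtggCGCTgcaggataatatc
PCDHB9: agccacaaggtggCGCTgcagactgaagag
PCDHB1: tggggagttgagtCGCTcaatgcaaatttt
PCDHA1: ggccacatgatgtCGCTgtacaccacaaag
PCDHA6: agccgcatgatgtCGCTgtctaccatgaag
PCDHAC1: tagaaggtgtggtCGCTcacgttcaccgtc
PCDHAC2: agcagtccgggttCGCTgtccgccacttcg
PCDHGA10: ggactctgagcgcCGCTgttcacctactag
PCDHGB6: agcctctgggcgcCGCTgtcggccagtgca
PCDHGC3: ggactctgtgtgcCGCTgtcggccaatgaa

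These windows lie at chr5:141213868-141213897 for PCDHB13, chr5:141223266-141223295 for PCDHB14, chr5:141182313-141182342 for PCDHB16, chr5:141208646-141208675 for PCDHB12, chr5:141187077-141187106 for PCDHB9 and chr5:141051277-141051306 for PCDHB1. Those of the alpha genes lie at chr5:140786089-140786118 for PCDHA1, chr5:140827900-140827929 for PCDHA6, chr5:140926223-140926252 for PCDHAC1 and chr5:140966368-140966397 for PCDHAC2. Those of the gamma genes lie at chr5:141412934-141412963 for PCDHGA10, chr5:141407927-141407956 for PCDHGB6 and chr5:141475883-141475912 for PCDHGC3. Each lies upstream of the RefSeq start of its gene. The letters around the core differed between clusters. The commonest run of 9 bases that holds the core was read from the windows of each cluster and then searched in the same place and on the same strand. GGTGGCGCT was found in 11 of 14 beta promoters, in 0 of 13 alpha and 0 of 20 gamma promoters, and in 0.108% of all promoters. GATGTCGCT was found in 9 of 13 alpha promoters and 0.0313% of all, and GCGCCGCTG in 10 of 20 gamma promoters and 0.151% of all. These runs were chosen from the members' own promoters, so their shares are a description. PCDHB1, the first gene of the beta cluster, held the letters CGCT without the longer beta run. PCDHAC1, PCDHAC2 and PCDHGC3 likewise held them without the longer run of their cluster. CGCT alone lay in this window in 20.5% of all promoters, and whether these genes carry the element was not tested. CCCTC, the letters in the name of the insulator protein CTCF, was searched on both strands of the whole 300-base promoter. It was found in 12 of 47 members (25.5%) and 71.2% of all promoters. A match is a run of letters and was not tested as a binding site. Nor was a missing match tested as the lack of a site.

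**Figure D1:**
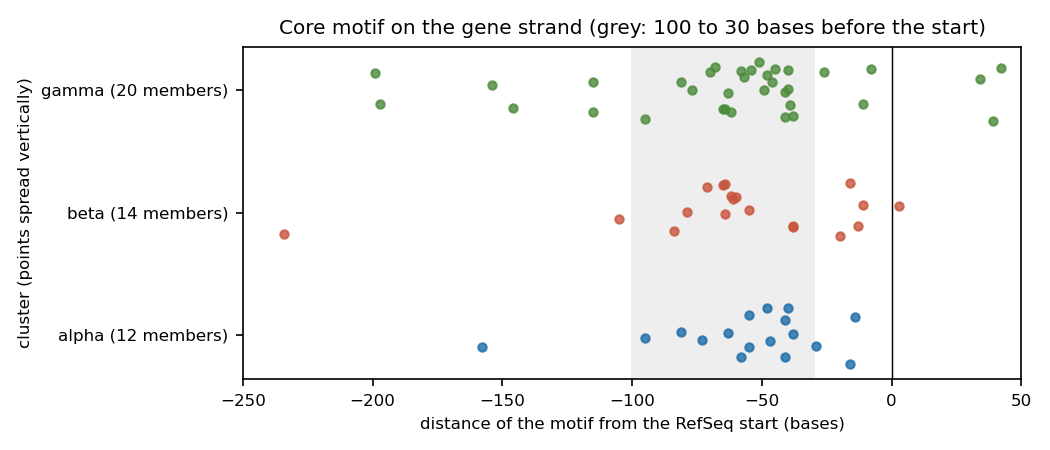
Distance in bases from the RefSeq start (x axis) of every CGCT on the gene strand in the promoters of alpha, beta and gamma members (rows; points are spread vertically for legibility). Most points lie in the grey band, 100 to 30 bases before the start, where 43 of 47 members held the core.

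The lines differed in which cluster stood out. Levels are given as CPM, which are read counts scaled to library size by the TMM method, and the members of a cluster were summed in each library. The beta sum was 19.5, 19 and 16 CPM in S2-007, 12.6, 11.9 and 11.6 in S2-020 and 12.2, 14.3 and 12.3 in S2-028. All S2-007 libraries lay above those of the other lines, which overlapped. The alpha sum was 10.6 ± 0.152 CPM (SD, n = 3) in S2-007, 7.95 ± 0.499 in S2-020 and 33.6 ± 0.971 in S2-028. The gamma sum was 111 ± 3.01, 69.5 ± 1.47 and 89.8 ± 1.5 CPM in the same order. S2-028 thus had the highest alpha sum, S2-007 the highest beta and gamma sums, and S2-020 the lowest alpha and gamma sums, and for alpha and gamma no library reached into the range of another line. These sums are descriptions with no test, and the alpha and gamma sums hold reads from the shared exons.

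**Figure D2:**
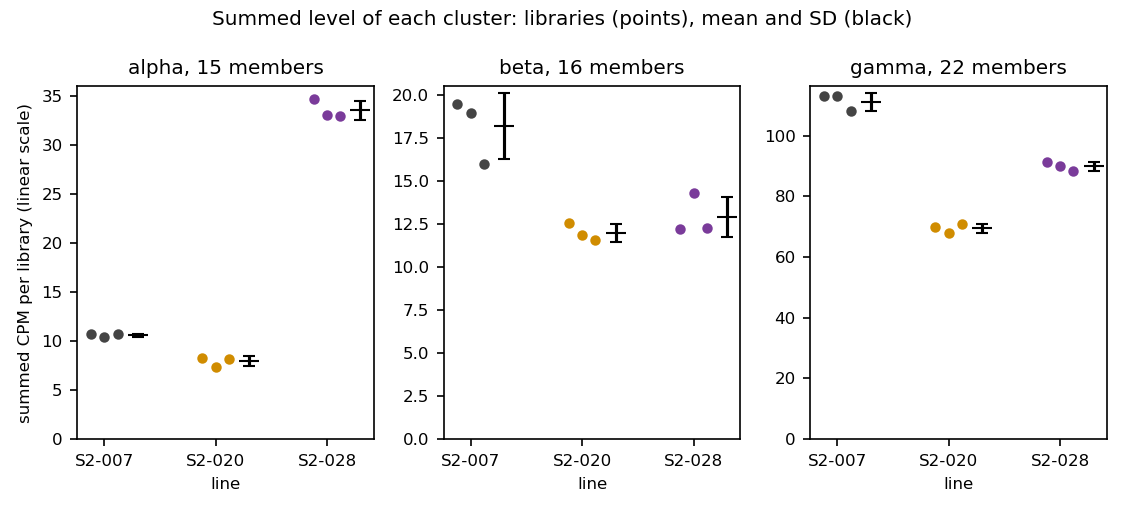
Summed CPM of each cluster per library (y axis, linear from 0) in the 3 lines (x axis), with the mean and SD of 3 libraries in black. Alpha is highest in S2-028 at 33.6 CPM, and beta and gamma are highest in S2-007 at 18.2 and 111 CPM.

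How far a read can be assigned to a member differed between clusters. Transcripts were cut into words of 31 bases, and a median of 46.1% of an alpha member's words occurred in all other alpha members. The median was 41.4% for gamma and 0 for beta, since beta genes have no common exons. A beta gene still shared words with other genes, from 6.07% for PCDHB1 to 58.2% for PCDHB8. PCDHB8 had 43.1% of its words in PCDHB13, and PCDHB10 had 31.1% in PCDHB9. PCDHB2 had 43.9% of its exon bases under genes that are not members, on either strand, and PCDHB16 had 26.1%. The rule used to count reads with several matches is not given in the sources used here, so the values of these genes are less certain. PCDHB13 itself had 32.7% of its words in other genes, PCDHB14 had 21.0% and PCDHB9 had 40.0%, and the same limit holds for them.

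In the beta cluster, PCDHB1, PCDHB9, PCDHB13 and PCDHB14 carried most of the reads. Together they took 77.6% of the beta counts in S2-007, 78.8% in S2-020 and 78.4% in S2-028. All beta genes encode cell surface adhesion proteins, and no separate role is given for each here. Per kilobase of exon, the level in S2-007 was 0.979 ± 0.183 CPM for PCDHB14, 0.891 ± 0.0723 for PCDHB13, 0.453 ± 0.0978 for PCDHB1 and 0.381 ± 0.0496 for PCDHB9. PCDHB14 and PCDHB13 were above PCDHB1 and PCDHB9 by more than their spread, and within each of these pairs the spreads overlapped. In S2-020 the same per-kilobase levels lay between 0.403 and 0.487 CPM, and in S2-028 between 0.417 and 0.484, and within each line the 4 genes did not differ beyond their spread.

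The other beta genes were low. PCDHB2, PCDHB11, PCDHB12, PCDHB15 and PCDHB16 had mean levels between 0.0837 and 0.941 CPM in the 3 lines. PCDHB3, PCDHB4, PCDHB5, PCDHB6, PCDHB7, PCDHB8 and PCDHB10 had at most 0.41 CPM in any library. PCDHB5 was at the floor of 3 counts or under it in all S2-007 libraries, with 0.305, 0.119 and 0.0276 CPM in S2-020 and 0.0324, 0.031 and 0.163 in S2-028. At this depth, a difference in genes at this level was mostly not detectable.

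**Figure D3:**
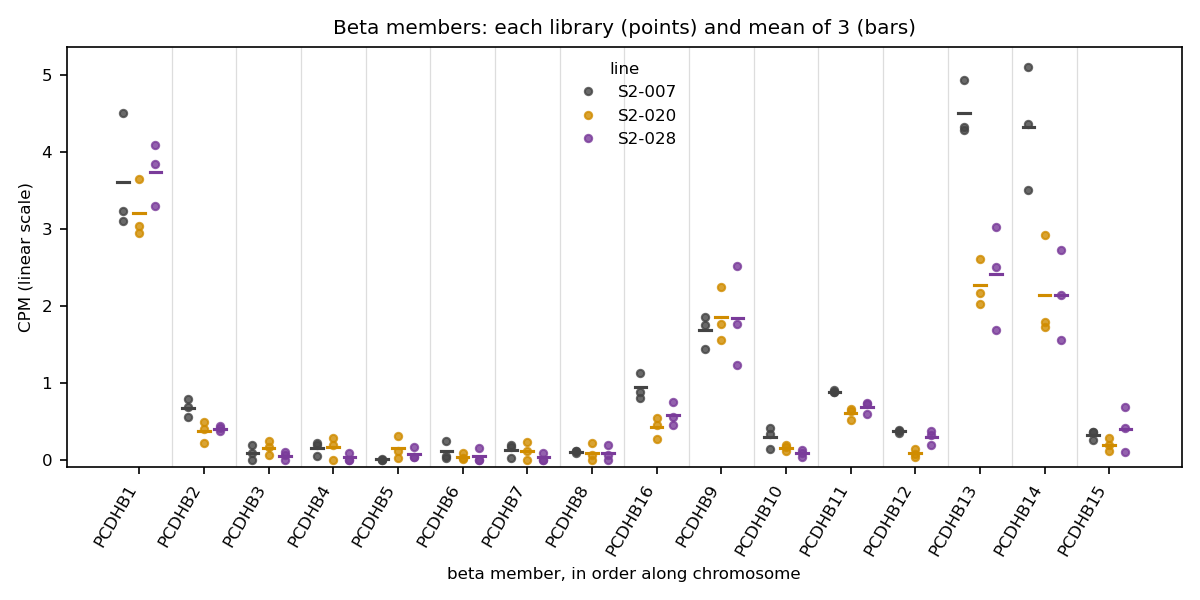
CPM (y axis, linear) of the 16 beta members in order along the chromosome (x axis) in each library of S2-007, S2-020 and S2-028 (points), with the mean of 3 libraries as a bar. PCDHB13 and PCDHB14 are higher in S2-007 than in the other lines, PCDHB1 and PCDHB9 overlap between lines, and 7 members stay at or under 0.41 CPM.

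PCDHB13 and PCDHB14 were the beta genes called lower than in S2-007 in both other lines. PCDHB13 had 4.28, 4.93 and 4.32 CPM in S2-007, 2.02, 2.17 and 2.61 in S2-020 and 3.03, 1.69 and 2.51 in S2-028. PCDHB14 had 4.36, 5.11 and 3.5 CPM in S2-007, 2.92, 1.73 and 1.79 in S2-020 and 2.14, 2.73 and 1.55 in S2-028. For both genes, every S2-007 library lay above every library of the other lines, and the libraries of S2-020 and S2-028 overlapped. By edgeR's quasi-likelihood test, with p adjusted by Benjamini-Hochberg over all genes tested, PCDHB13 fell in S2-028 against S2-007 by a log2 fold change of -0.88 (SE 0.21, adjusted p = 0.0021). PCDHB14 fell there by -0.99 on the log2 scale (SE 0.223, adjusted p = 0.00124). For S2-020 against S2-007, it was -0.99 on the log2 scale for PCDHB13 (SE 0.178, adjusted p = 0.000119 in edgeR) and -1.01 for PCDHB14 (SE 0.219, adjusted p = 0.000801 in edgeR). These comparisons share the S2-007 libraries. Between S2-028 and S2-020 neither gene passed the test, with a log2 fold change of 0.08 for PCDHB13 (95% interval -0.38 to 0.53) and -0.01 for PCDHB14 (95% interval -0.52 to 0.5). PCDHB13 and PCDHB14 neighbour each other at the far end of the cluster, with PCDHB15 alone beyond them. Both held the run GGTGGCGCT, as did PCDHB9, which was not called, and most other beta promoters.

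A gene was called where the adjusted p was under 0.05 and the fold change was at least 1.5 (0.585 on the log2 scale). Of the 16 beta genes, 9 had enough counts to be tested in S2-028 against S2-007, and PCDHB3, PCDHB4, PCDHB5, PCDHB6, PCDHB7, PCDHB8 and PCDHB10 were not tested. PCDHB13 and PCDHB14 were called lower and no beta gene was called higher. Of all 26371 genes tested, 18.4% were called, 8.19% lower and 10.2% higher. The libraries of 5 of the 9 beta genes did not overlap, beside 43.7% of all genes tested. DESeq2 and an unadjusted p under 0.05 also gave 0 beta genes higher. The 9 genes had a median of -0.34 on the log2 scale, and all genes one of 0. Without S2-028 replicate 2, PCDHB4 and PCDHB7 were also tested and called lower, with 4 beta genes lower in all. Both have 0 counts in the remaining S2-028 libraries, so that no fold change is given.

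The comparison of S2-020 with S2-007 could test more of the beta genes. In it, 13 were tested and 4 were called lower, where 21.6% of all 26657 genes tested were called and 12.1% were lower. PCDHB5, PCDHB6 and PCDHB8 were not tested. The libraries of 6 of the 13 genes did not overlap, beside 48.8% of all genes. Their median was -0.72 on the log2 scale, and that of all genes -0.05. Beside PCDHB13 and PCDHB14, the genes called were PCDHB16 and PCDHB12. PCDHB16 had 1.13, 0.806 and 0.881 CPM in S2-007 and 0.263, 0.547 and 0.455 in S2-020, with no overlap, and a log2 fold change of -1.15 (SE 0.372, edgeR adjusted p = 0.0176). PCDHB12 had 0.383, 0.342 and 0.379 CPM in S2-007 and 0.138, 0.0713 and 0.0414 in S2-020, also with no overlap, and a log2 fold change of -2.12 (SE 0.688, edgeR adjusted p = 0.0181). The call of PCDHB12 was lost in 5 of the 6 fits without 1 library, all but that without S2-020 replicate 1, with an adjusted p between 0.0515 and 0.0691. That of PCDHB16 was lost without S2-020 replicate 1 (edgeR adjusted p = 0.072) and without S2-007 replicate 1 (0.0896), and without the latter 2 beta genes were called lower. No beta gene was called higher in this comparison, where 9.57% of all genes were, with 0 by DESeq2 and 0 at an unadjusted p under 0.05. PCDHB5 was called higher where no filter was set, at 1 count in all S2-007 libraries together.

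In S2-028 against S2-020, 0 of 9 beta genes tested were called in edgeR, where 22.2% of all 26031 genes tested were called. The same 7 genes as against S2-007 were not tested. DESeq2 also called 0, and 1 gene had an unadjusted p under 0.05. The libraries of 1 of the 9 genes did not overlap, beside 48.6% of all genes. In both counts that gene was PCDHB12, at 0.324, 0.372 and 0.196 CPM in S2-028. These S2-028 values did not overlap those of S2-020. Its log2 fold change was 1.81 (SE 0.746, edgeR adjusted p = 0.0628). Without S2-028 replicate 2, PCDHB4 was tested and called lower, again with 0 counts in the remaining S2-028 libraries.

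PCDHB1 and PCDHB9 were the abundant beta genes that were not called in any comparison. PCDHB1 had 4.51, 3.23 and 3.1 CPM in S2-007, 3.65, 3.04 and 2.95 in S2-020 and 3.3, 4.09 and 3.85 in S2-028. PCDHB9 had 1.75, 1.86 and 1.44 CPM in S2-007, 1.56, 2.25 and 1.76 in S2-020 and 1.23, 2.52 and 1.76 in S2-028. The libraries of all lines overlapped for both genes. For PCDHB1, the 95% interval of the log2 fold change was -0.3 to 0.46 in S2-028 and -0.54 to 0.2 in S2-020, each against S2-007. For PCDHB9, these intervals were -0.37 to 0.69 and -0.31 to 0.6, and both reach past the fold threshold of 0.585.

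**Figure D4:**
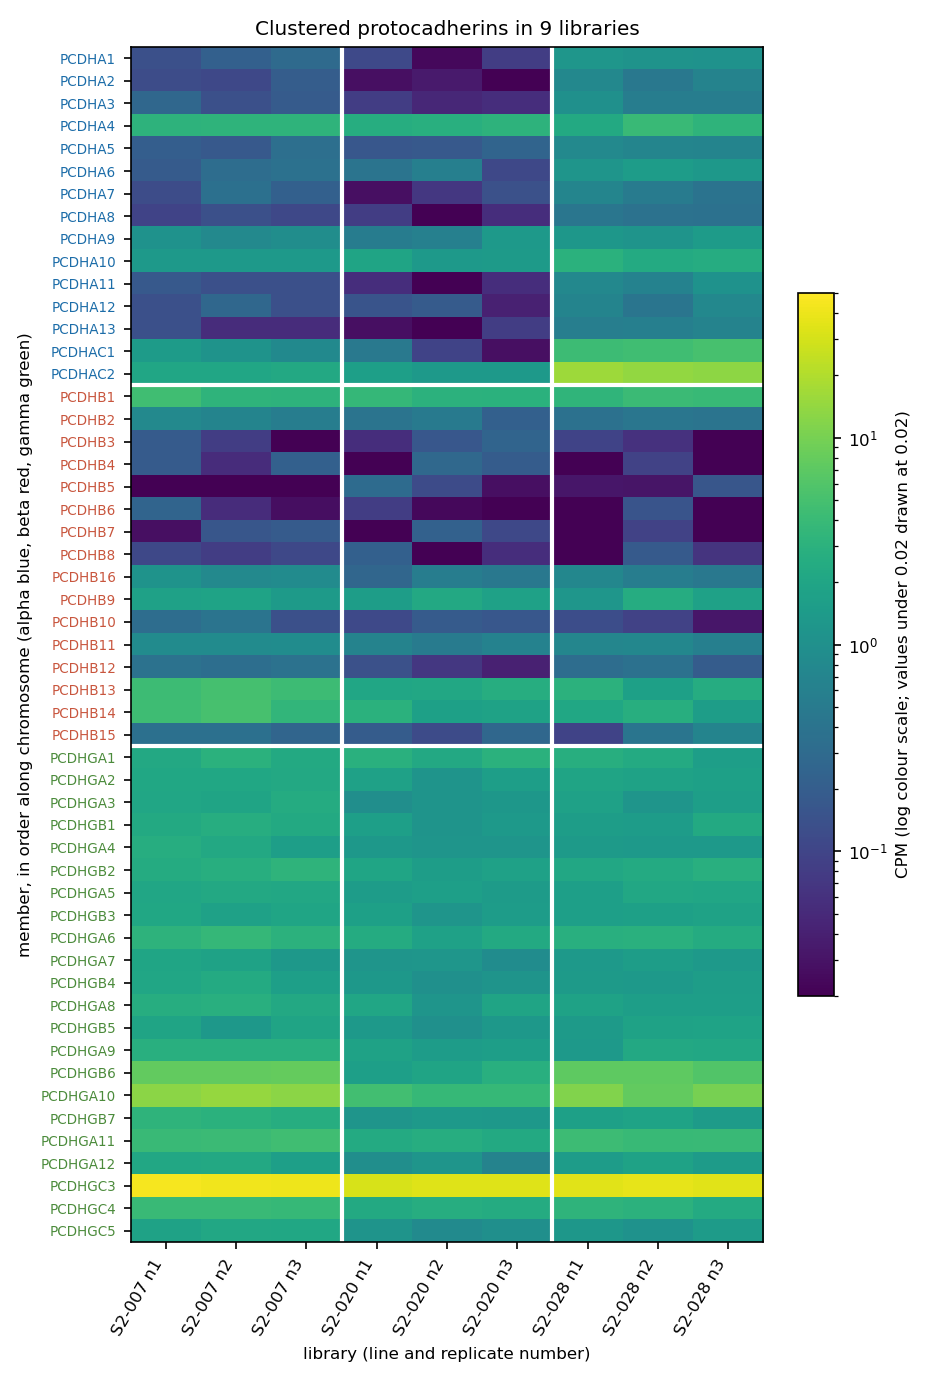
CPM (log colour scale) of the 53 members in order along the chromosome (rows; alpha blue, beta red, gamma green labels) in the 9 libraries (columns). Most alpha rows are brighter in S2-028, PCDHAC2 most of all at 15.9, 14.1 and 13.1 CPM, but PCDHA4 is not. PCDHGC3 is the brightest row in every library.

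In the alpha cluster, the C-type genes PCDHAC2 and PCDHAC1 had the largest differences in CPM between S2-028 and the other lines. PCDHAC2 had 2.06, 2.05 and 2.28 CPM in S2-007, 1.65, 1.38 and 1.32 in S2-020 and 15.9, 14.1 and 13.1 in S2-028. Every S2-028 library lay far above the others. Its log2 fold change was 2.78 in S2-028 against S2-007 (SE 0.142, edgeR adjusted p = 1.2e-12) and 3.30 against S2-020 (SE 0.148, edgeR adjusted p = 6.51e-13). PCDHAC1 had 1.45, 1.13 and 0.813 CPM in S2-007, 0.471, 0.0951 and 0.0276 in S2-020 and 4.24, 4.55 and 5.08 in S2-028. The 3 lines did not overlap, with S2-020 lowest. Its log2 fold change was 2.05 in S2-028 against S2-007 (SE 0.228, edgeR adjusted p = 2.47e-07). In S2-020 against S2-007 it was -2.52 (SE 0.586, edgeR adjusted p = 0.0015), and without S2-020 replicate 1, which held most of the S2-020 counts, it was -4.13. PCDHAC2 took 39.6% to 45.7% of the alpha counts in the S2-028 libraries, against 19.2% to 21.3% in S2-007 and 16.2% to 19.8% in S2-020. Per kilobase of exon, PCDHAC2 was at 2.33 ± 0.23 CPM in S2-028, above every other alpha gene there.

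All 15 alpha genes were tested in S2-028 against S2-007, and 12 were called higher and 0 lower. In the fits without 1 library, 10 to 11 were called higher. The background is 10.2% of all genes higher and 8.19% lower. No alpha gene was lower by DESeq2 or at an unadjusted p under 0.05. The 15 genes had a median of 1.83 on the log2 scale, beside 0 for all genes, and the libraries of 14 did not overlap, beside 43.7% of all genes. PCDHA2, PCDHA8, PCDHA11 and PCDHA13 were too low in S2-007 and S2-020 to be tested between these lines, and entered here through S2-028. Such genes could hardly be called lower, and the 12 called, the median and the overlap include them. With at least 10 counts asked for in every library, PCDHA2, PCDHA8 and PCDHA13 were not tested. PCDHA4, PCDHA7 and PCDHA9 were not called, of which PCDHA7 and PCDHA9 are named after their values were seen. PCDHA4 was at 3.19 ± 0.0417 CPM in S2-007, 2.86 ± 0.291 in S2-020 and 3.18 ± 0.843 in S2-028. Per kilobase its mean was the highest of the numbered alpha genes in each line, at 0.238 ± 0.00311, 0.213 ± 0.0217 and 0.237 ± 0.0628 CPM. In S2-028, PCDHA6 at 0.215 ± 0.0262 and PCDHA1 at 0.206 ± 0.0126 lay within its spread. The libraries of PCDHA4 overlapped, with a log2 fold change of 0.02 (95% interval -0.39 to 0.43).

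The numbered alpha genes that were called rose from low levels, and 3 of them are given here. PCDHA1 had 0.137, 0.219 and 0.298 CPM in S2-007, 0.111, 0.0238 and 0.0827 in S2-020 and 1.23, 1.13 and 1.09 in S2-028. PCDHA6 had 0.191, 0.328 and 0.366, then 0.401, 0.594 and 0.11, and in S2-028 1.17, 1.49 and 1.31 CPM. PCDHA11 had 0.178, 0.137 and 0.136, then 0.0554, 0 and 0.0551, and in S2-028 0.777, 0.65 and 1.08 CPM. In all these genes the S2-028 libraries lay above the rest. The rise in S2-028 against S2-007 was 2.42 on the log2 scale for PCDHA1 (SE 0.41, edgeR adjusted p = 6.4e-05), 2.18 for PCDHA6 and 2.49 for PCDHA11. The 10 numbered alpha genes called higher differed by 0.286 to 1.25 CPM, beside 12.2 CPM for PCDHAC2. At the same time a median of 46.1% of the words of an alpha member lay in all members, and the part of reads from shared exons in these small differences was not tested. PCDHA8, named after its values were seen, was no longer called in any of the 6 fits without 1 library. PCDHA3 lost its call without S2-028 replicate 1 and PCDHA12 without S2-028 replicate 3, both also named after their values were seen.

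Against S2-020, 13 of 15 alpha genes were higher in S2-028 and 0 lower, where 12.1% of all genes were called higher and 10.1% lower. DESeq2 and an unadjusted p under 0.05 also gave 0 lower. The median log2 fold change was 3.10, beside 0.02 for all genes, and PCDHA4 and PCDHA9 were not called. In PCDHA2, named after its values were seen, no S2-020 library was above 3 counts. It was at least 16.1-fold higher in S2-028, against a floor of 3 counts per library, and with PCDHA2 at this bound the alpha median remained 3.10. Many of these genes had few counts in S2-020 and passed the filter through S2-028, where they were high. Such genes could hardly be called lower, so the 0 lower and the median depend in part on the filter. With at least 10 counts asked for in every library, 3 alpha genes were called higher. Between S2-020 and S2-007, 11 alpha genes were tested and PCDHAC1 was the one called, beside 12.1% of all genes lower and 9.57% higher, with 0 higher also by DESeq2 and at an unadjusted p under 0.05. Without S2-020 replicate 1, PCDHAC2 was called lower too (log2 fold change -0.65, edgeR adjusted p = 0.0484), which made 2. PCDHA2, PCDHA8, PCDHA11 and PCDHA13 were not tested there.

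In the gamma cluster, the C-type gene PCDHGC3 had the highest level per kilobase of all 53 genes in each line. It had 45.1, 42.4 and 40.8 CPM in S2-007, 31.6, 34.4 and 34.1 in S2-020 and 35.6, 37.5 and 35.2 in S2-028. No S2-007 library overlapped the others. The log2 fold change was -0.22 in S2-028 (SE 0.0731, edgeR adjusted p = 0.0252) and -0.36 in S2-020 (SE 0.0678, edgeR adjusted p = 0.000223), each against S2-007 and each under the fold threshold. Per kilobase of exon, PCDHGC3 was at 7.87 ± 0.397 CPM in S2-007, 6.15 ± 0.279 in S2-020 and 6.65 ± 0.226 in S2-028. The next highest per-kilobase level of a gamma gene in S2-007 was 2.00 ± 0.134 CPM, of PCDHGA10.

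PCDHGA10 and PCDHGB6 were lower in S2-020 by the largest fold of the gamma genes. PCDHGA10 had 12.7, 14.3 and 12.9 CPM in S2-007, 4.72, 3.79 and 3.82 in S2-020 and 11.5, 7.62 and 10.0 in S2-028. PCDHGB6 had 7.52, 7.68 and 7.94 CPM in S2-007, 1.66, 1.95 and 2.81 in S2-020 and 7.19, 7.22 and 6.02 in S2-028. The S2-020 libraries lay under all others for both genes, which neighbour each other. The drop in S2-020 against S2-007 was -1.70 on the log2 scale for PCDHGA10 (SE 0.127, edgeR adjusted p = 9.81e-10) and -1.85 for PCDHGB6 (SE 0.18, edgeR adjusted p = 4.92e-08). For S2-028 against S2-007 it was -0.43 and -0.15, and neither was called. S2-028 was higher than S2-020 by a log2 fold change of 1.23 for PCDHGA10 and 1.66 for PCDHGB6. PCDHGA10 took 12% ± 0.715 of the gamma counts in S2-007 and 5.91% ± 0.732 in S2-020, and PCDHGB6 took 6.94% ± 0.378 and 3.07% ± 0.82.

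All 22 gamma genes were tested in each comparison. A median of 41.4% of the words of a gamma member lay in all members, so the 22 may hold reads in common. The part of reads from shared exons in their differences was not tested. Against S2-007, S2-020 had 14 called lower and 0 higher, beside 12.1% and 9.57% of all genes, and the log2 fold changes of the 14 were between -0.60 and -1.85. The libraries of 20 of the 22 did not overlap, beside 48.8% of all genes. DESeq2 and an unadjusted p under 0.05 gave 0 higher too. The median of the 22 was -0.72 and that of all genes -0.05, and 21 of the 22 were under 0. The exception was PCDHGA1, the first gene of the cluster, at 0.11 (95% interval -0.28 to 0.5), named after its value was seen. The neighbouring genes PCDHGB7, PCDHGA11 and PCDHGA12 were also lower, at log2 fold changes of -1.20, -0.76 and -1.11, as were the C-type genes PCDHGC4 at -0.68 and PCDHGC5 at -1.03. In S2-028 against S2-007, PCDHGB7 at -0.78 (edgeR adjusted p = 0.00752) and PCDHGC5 at -0.66 (edgeR adjusted p = 0.0435) were called lower, a count near the 8.19% of all genes called lower. No gamma gene was called higher, beside 10.2% of all genes, and 0 were higher by DESeq2 or at an unadjusted p under 0.05. The median was -0.29. The call of PCDHGC5 was lost without S2-028 replicate 1 or 2, S2-007 replicate 2 or 3, which left 1 gamma gene lower in all of these but the last, where PCDHGA4 and PCDHGA8, named after their values were seen, were called and the count was 3. In S2-028 against S2-020, PCDHGB6, PCDHGA10, PCDHGA11 and PCDHGA12 were higher and 0 lower, beside 12.1% and 10.1% of all genes, with 0 lower also by DESeq2 and at an unadjusted p under 0.05. PCDHGA12, at a log2 fold change of 0.76 (edgeR adjusted p = 0.0408), lost its call in 5 of the 6 fits without 1 library, and only without S2-020 replicate 2 was it kept.

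**Figure D5:**
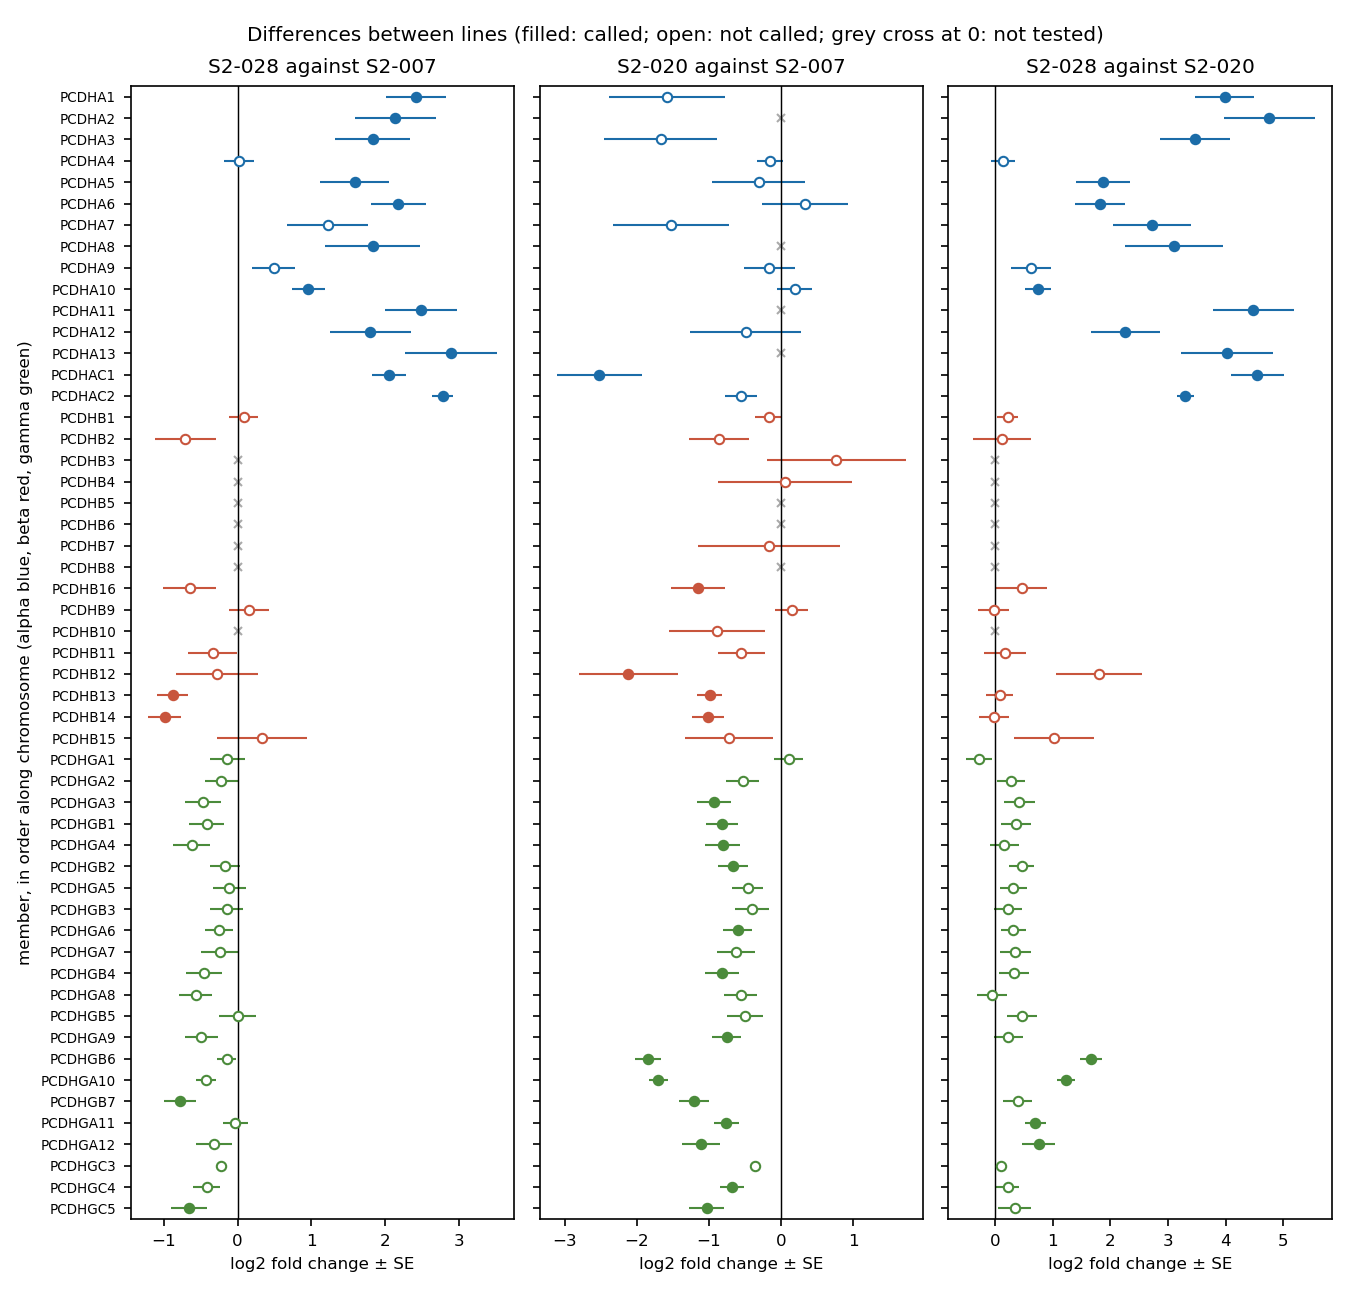
Log2 fold change with its SE (x axis, one panel per comparison) of the 53 members in order along the chromosome (rows; alpha blue, beta red, gamma green), filled where called, open where not, and a grey cross at 0 where not tested. In S2-028, 12 alpha genes are called higher than in S2-007, and in S2-020, 14 gamma genes and 4 beta genes are called lower than in S2-007.

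Genes around the clusters were compared next. TAF7, a subunit of the general transcription factor TFIID whose gene lies between the beta and gamma clusters, had 82.6 ± 1.68 CPM in S2-007, 115 ± 1.5 in S2-020 and 86.1 ± 4.93 in S2-028. S2-020 was highest without overlap, at a log2 fold change of 0.48 against S2-007, under the fold threshold. The mitochondrial carrier gene SLC25A2, next to it, had too few counts to be tested. Of the beta pseudogenes, PCDHB19P was tested and not called, with means of 0.568 to 0.769 CPM. Of the neighbours tested, 16.2%, 21.6% and 16.7% were called in S2-028 against S2-007, S2-020 against S2-007 and S2-028 against S2-020, beside 18.4%, 21.6% and 22.2% of all genes. Of 37 protein-coding genes within 1 Mb outside the clusters, 2 were higher and 4 lower in S2-028 against S2-007. S2-020 against S2-007 had 1 higher and 7 lower, with 2 higher without S2-020 replicate 2 or 3 or S2-007 replicate 1 or 3. S2-028 against S2-020 had 4 of 36 tested higher and 2 lower, with 1 lower without S2-020 replicate 1 and 4 without S2-020 replicate 2. The median log2 fold change of these neighbours was -0.14, -0.15 and -0.12 in that order. The growth factor gene HBEGF was higher in S2-028 (0.69) and lower in S2-020 (-0.85) against S2-007, and NRG2, a further EGF family ligand, was higher in both (0.97 and 1.73). The call of HBEGF in S2-028 was lost without S2-028 replicate 3 (log2 fold change 0.55), which left 1 neighbour higher. ARAP3, a regulator of small GTPases, fell in S2-020 (-2.63), and so did CYSTM1 (-1.13) and RELL2 (-0.87). CYSTM1 was also called lower in S2-028 than in S2-007, at 32.7 ± 4.24 CPM against 59 ± 2.29. CD14 was lower in both lines than in S2-007, at 2 to 8 counts per library in S2-028 and 4 to 8 in S2-020.

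PCDH1, a non-clustered protocadherin known from epithelia, lies within the same 1 Mb and differed most in S2-020. It had 416 ± 14.9 CPM in S2-007, 1.55 ± 0.11 in S2-020 and 206 ± 23.3 in S2-028. The log2 fold change was -8.07 in S2-020 (SE 0.0771, edgeR adjusted p = 5.93e-23) and -0.99 in S2-028 (SE 0.0709, edgeR adjusted p = 2.74e-10), each against S2-007. PCDH7, on another chromosome, rose in S2-020 by a log2 fold change of 1.10, and PCDH12 fell by 1.45 on the log2 scale. Of the 11 non-clustered protocadherins listed, 9 were tested in S2-028 against S2-007, with PCDH1 as the one called. For S2-020 against S2-007, 10 were tested, with 1 higher and 2 lower. These are 11.1% and 30% of the genes tested, beside 18.4% and 21.6% of all genes called. In S2-028 against S2-020, 1 of 10 tested was higher and 1 lower (20%), beside 22.2% of all genes called. PCDH12 was also called higher in S2-028 than in S2-020 without S2-028 replicate 1 (log2 fold change 1.31, edgeR adjusted p = 0.0444), beside PCDH1, which made 2.

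Factors known to act on the clusters or on chromatin in general were taken from a list of 30 genes. CTCF, the insulator protein that loops these promoters to their enhancers, had 90.9 ± 2.7 CPM in S2-007, 135 ± 6.39 in S2-020 and 84.1 ± 2.48 in S2-028. S2-020 was highest without overlap, at a log2 fold change of 0.57 against S2-007, which is just under the fold threshold. With S2-020 replicate 3 or S2-007 replicate 3 left out it was 0.60 and 0.63 and was called, as it was at 0.60 with RLE size factors, in DESeq2 and with all 9 libraries in 1 fit. S2-028 was lower than S2-020 by -0.69 (SE 0.0553, edgeR adjusted p = 3.86e-09). The cohesin subunits STAG1 and STAG2 were higher in S2-028 than in S2-007, at 0.69 and 0.91 on the log2 scale, and than in S2-020, at 1.02 and 0.99. PDS5B, a cohesin regulator, was lower in S2-028, at -0.61 and -1.03. The cohesin subunits RAD21, SMC1A and SMC3, named after their values were seen, were not called in S2-028 against S2-007. Their log2 fold changes were 0.01, -0.26 and 0.13. SMCHD1, a repressor known for these clusters, was called in no comparison, with log2 fold changes of 0.21, 0.27 and -0.09.

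The DNA methyltransferase DNMT3B, the maintenance methylation factor UHRF1 and the corepressor TRIM28 were higher in both other lines than in S2-007. The difference in S2-028 was 0.97 on the log2 scale for DNMT3B, 0.81 for UHRF1 and 1.02 for TRIM28, and in S2-020 it was 0.74, 0.87 and 0.92. Of the methylcytosine oxidases, TET1 was also higher in both, at 1.21 ± 0.256 CPM in S2-028 and 1.06 ± 0.175 in S2-020 against 0.599 ± 0.0792 in S2-007, TET3 was higher in S2-020 at 0.62, and TET2 was lower in S2-028 than in S2-020 at -0.80. The call of TET1 in S2-028 was lost without S2-028 replicate 1 or 3 or S2-007 replicate 2 (edgeR adjusted p between 0.0644 and 0.0704). That in S2-020 was lost without S2-020 replicate 1 or 2 or S2-007 replicate 1 or 2 (edgeR adjusted p between 0.0835 and 0.145). In all, 6 of the 30 were higher and 1 lower in S2-028 against S2-007, 5 were higher in S2-020 against S2-007 (8 higher without S2-007 replicate 3), and 2 were higher and 3 lower in S2-028 against S2-020. These are 23.3%, 16.7% and 16.7% of the 30, beside 18.4%, 21.6% and 22.2% of all genes called. The median log2 fold change was 0.07, 0.28 and -0.11. Of the 13 listed intracellular partners of these proteins, the tyrosine kinase genes PTK2B and FYN were called in both lines. PTK2B was lower at -0.66 in S2-028 and -4.19 in S2-020 against S2-007, and FYN was higher at 1.07 and 1.22. Against S2-007, 2 of the 13 partners were called in S2-028 (15.4%) and 4 in S2-020 (30.8%). The shares of all genes called were 18.4% and 21.6%. In S2-028 against S2-020, 2 partners were called (15.4%), beside 22.2% of all genes. Whether any of these genes acts on the clusters was not tested.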

How the data were processed

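RNA of 3 libraries per line of S2-007, S2-020 and S2-028 was measured. According to the labels and the study's methods, the libraries were strand-specific and poly(A)-selected. The reads were trimmed with Trimmomatic 0.39 and aligned with BWA 0.7.17 to GRCh38.p14, and SAMtools 1.12 and edgeR 3.16.5 are named in the submitters' processing notes. BWA does not join reads across introns, which affects reads over the junction to the constant exons. The deposited table holds raw read counts for each gene. The tool that counted, its use of strand and its rule for reads with several matches are not given in the sources used here. A further 2 lines name no gene and were left out, and 18 columns of normalized signal that the authors deposited were not used. Of counts above 0 and under 20, 74.6% were even, against 49.7% of those of 1000 or more. The cause was not tested.

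Counts were fitted in R 4.3.3 with edgeR 4.0.16 (TMM, filterByExpr asking for 10 counts and a total of 15, quasi-likelihood test), using the 6 libraries of the lines compared. P-values were adjusted over all genes tested. The SE is the log2 fold change over the root of F. CPM use TMM factors from all 9 libraries, so that ratios of CPM can differ slightly from fold changes. Exon lengths and shared words of 31 bases come from GENCODE 44, and promoters and coordinates from RefSeq. The procedure was tested on simulated data. The members and lists were chosen with earlier results of these data known. Named genes were all beta genes, the C-type genes, the 3 most abundant alpha and gamma genes, the 4 with the smallest adjusted p per comparison, and listed genes that were called (at most 4 non-clustered protocadherins and neighbours per comparison). Floors cover counting error only. Labels name no batch. No library was a repeat of another, with a chi-square per gene of at least 8.41 between libraries of a line. Alternatives were RLE size factors, the likelihood ratio test, DESeq2 1.42.0, other filters, all 9 libraries, a replicate block, each library left out, and halved counts, added after seeing the data.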

Additional observations from a re-analysis of the deposited data

How the results depend on the processing

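No log2 fold change of a named gene changed direction with a call under any alternative. Of the values over single genes, 1813 kept their call, 29 lost it and 10 gained it. Halving all counts moved no count of called genes by over 1.5 times. The strictest filter took away the genes with few counts: in S2-028 against S2-020 it left 7 members and 3 alpha members higher, and in S2-020 against S2-007 0 alpha members lower, because fewer genes were tested. Without a filter, 1 member, a beta gene, was higher in S2-020 against S2-007, and 1 gamma member was lower in S2-028 against S2-007. The likelihood ratio test gave 2 alpha members lower in S2-020 against S2-007 and 1 beta member higher in S2-028 against S2-020, and 1 fit of all 9 libraries gave 5 and 1. Neighbours higher in S2-020 against S2-007 were 2 with RLE size factors, DESeq2, all 9 libraries or the block. With library size alone, the summed CPM of the gamma cluster in S2-020 was 67.5 and the summed CPM of the gamma cluster in S2-028 was 91.9. The causes were not tested.

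The replicate numbers did not pair the libraries: the deviations of same-numbered libraries of 2 lines correlated at -0.0217 to 0.014, those of other pairs at -0.0216 to 0.031. With the replicate block, 1 gamma member was lower in S2-028 against S2-007 and 2 neighbours were higher in S2-020 against S2-007, and the other counts of calls stayed within 1.5 times.

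Leaving out each library in turn gave, in S2-028 against S2-007, 2 to 4 beta and 1 to 3 gamma members lower and 1 to 2 neighbours higher. There it also gave 10 to 11 alpha members higher. In S2-020 against S2-007 it gave 1 to 2 alpha and 2 to 3 beta members lower, 4 to 8 regulators higher (8 without S2-007 replicate 3) and 1 to 2 neighbours higher. In S2-028 against S2-020 it gave 0 to 1 members, the 1 a beta gene, lower, 1 to 2 non-clustered protocadherins higher and 1 to 4 neighbours lower (1 without S2-020 replicate 1 and 4 without S2-020 replicate 2). Genes near the floor, among them 7 beta genes, are limited by depth.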
